A study of Mus musculus with 18 samples.

Results

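The Il6 locus was taken as the Il6 gene body with 100 kb added on both sides, and its members were all peaks of accessible chromatin overlapping that window, 37 of the 194284 peaks in the series. Il6 (ENSMUSG00000025746.7) lies on the plus strand of mouse chromosome 5 at chr5:30339701-30346508 in the genome build mm9, with 5 exons in the GENCODE M1 annotation. ATAC-seq served to measure chromatin accessibility. In this assay a transposase cuts open DNA and leaves sequencing adapters there, so that the read count over a region reports how open it was. The cells were bone marrow-derived macrophages (BMDMs) from 3 male Il10-/- mice of 12 weeks of age on the C57BL/6J background, cultured for 6 days, and the series describes the samples of the 6 conditions as matched. All groups, the Unstimulated controls included, therefore lacked Il10, and no wild-type library was analysed here. The 6 groups of 3 libraries were Unstimulated, (+)-JQ1 (500 nM), IL-10 (10 ng/mL), LPS (50 ng/mL), LPS + (+)-JQ1 and LPS + IL-10. Treatment with (+)-JQ1, IL-10 or neither lasted 12 h before LPS or buffer was added for 4 h, giving 16 h in total. In all groups the replicate 1 libraries shared a lane and the replicate 3 libraries shared a second one, while the replicate 2 libraries without LPS and with LPS were in different lanes. The LPS + (+)-JQ1 against LPS and LPS + IL-10 against LPS comparisons therefore ran within lanes for every replicate.

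IL-6 is a cytokine released early by macrophages that sense bacteria, and it drives the acute phase response and lymphocyte differentiation through gp130 and STAT3. Its transcription in macrophages is known to depend on a promoter with sites for NF-kB, C/EBP and AP-1 and on distal enhancers. LPS, a component of the outer membrane of Gram-negative bacteria, activates NF-kB, AP-1 and IRF factors through TLR4. (+)-JQ1 occupies the bromodomains of BET proteins, which read acetylated histones at active promoters and enhancers, and IL-10 is an anti-inflammatory cytokine that acts through STAT3.

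Of the 37 peaks, 4 overlapped the gene body, 19 lay upstream and 14 downstream. They covered 47361 bases, 22.9% of the 207 kb window. Peaks are named here by the distance in kb from the Il6 start to their centre. The Il6 promoter peak was at chr5:30337938-30340058, reaching from upstream of the start over the first exon and into the second. The +1.2 kb peak covered the end of the second exon and the third, the +3.0 kb peak was intronic, and the +5.7 kb peak covered the fourth exon and part of the last. The +9.7 kb and +14.0 kb peaks, at chr5:30348553-30350317 and chr5:30352101-30355377, were intergenic beyond the 3′ end. All 19 upstream peaks were intergenic in GENCODE M1, although those at -62.2 kb and -3.8 kb belonged to the authors' promoter class, which covers 1000 bases before to 100 after a start. Downstream, the +59.8 kb peak covered the start of Tyms, a thymidylate synthase gene needed for DNA synthesis, and the +92.3 kb peak covered the starts of 3110082J24Rik and Fam59b.

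The sequence below shows the 250 bases before the RefSeq start of Il6, found by exact match at chr5:30339404-30339653 (mm9, plus strand), since the promoter peak is the reference point for the whole locus. The RefSeq start is 47 bases upstream of the GENCODE M1 start. Capitals mark, from left to right, an AP-1 match (TGANTCA), a C/EBP match (TTGCNNAA on the minus strand) and a kappaB match.

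Il6 promoter: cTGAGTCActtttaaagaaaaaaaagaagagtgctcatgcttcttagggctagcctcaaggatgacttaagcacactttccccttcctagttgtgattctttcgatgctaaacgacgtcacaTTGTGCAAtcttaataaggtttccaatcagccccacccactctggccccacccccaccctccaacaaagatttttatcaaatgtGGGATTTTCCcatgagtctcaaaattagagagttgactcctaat

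Of 27025 RefSeq mouse promoters (GRCm38.p6) in a window of this length, 6.87% held the AP-1 motif, 9.55% the C/EBP motif and 3.75% the kappaB motif. No match was found in these 250 bases to the CRE (TGACGTCA), IRF (GAAA and GAAA with any 2 bases between), PU.1 (GAGGAAGT) or STAT (TTCNNGGAA or TTCNNNGAA) letters, which 1.62%, 3.04%, 2.44% and 7.18% of those promoters held. Both strands were searched for every motif. AP-1, CRE and STAT letters of this form can match both strands at one place, which was counted as 1 match.

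The next stretches come from the peaks that the results below turn on, with capitals for the matches in them and 20 bases on either side. The -92.7 kb stretch holds a C/EBP match and a kappaB site that matched on both strands with an offset of 1 base, and its peak had the highest fold change with LPS of the locus. The -39.3 kb stretch holds 2 of its peak's 3 AP-1 matches. The -19.5 kb stretch holds an IRF match on the minus strand and a PU.1 match. The +5.7 kb stretch, in the last intron of Il6, holds a C/EBP match on each strand. The +9.7 kb stretch holds a STAT match, and the +14.0 kb stretch 2 C/EBP matches.

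-92.7 kb, chr5:30246925-30247006, plus strand: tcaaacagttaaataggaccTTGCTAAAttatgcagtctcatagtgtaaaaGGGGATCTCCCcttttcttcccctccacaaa

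-39.3 kb, chr5:30300510-30300610, plus strand: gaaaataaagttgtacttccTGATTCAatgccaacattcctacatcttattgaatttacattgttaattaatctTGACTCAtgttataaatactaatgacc

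-19.5 kb, chr5:30320162-30320338, plus strand: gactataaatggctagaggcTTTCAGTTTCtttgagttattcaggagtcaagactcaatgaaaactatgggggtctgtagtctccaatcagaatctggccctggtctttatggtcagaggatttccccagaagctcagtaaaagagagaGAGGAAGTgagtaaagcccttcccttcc

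+5.7 kb, chr5:30344841-30344942, plus strand: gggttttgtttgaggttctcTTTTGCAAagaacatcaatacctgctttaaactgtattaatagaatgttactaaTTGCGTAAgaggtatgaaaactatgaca

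+9.7 kb, chr5:30349870-30349918, plus strand: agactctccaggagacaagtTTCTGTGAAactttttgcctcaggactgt

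+14.0 kb, chr5:30353753-30353883, plus strand: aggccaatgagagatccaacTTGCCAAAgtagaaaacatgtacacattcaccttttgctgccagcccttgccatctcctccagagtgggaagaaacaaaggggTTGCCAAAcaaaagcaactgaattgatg

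Over its whole width of 1764 bases the +9.7 kb peak held that single STAT match and none of the other 6 motifs. Among 12867 peaks within 10% of its width, 46.6% held AP-1, 52.7% C/EBP and 41.4% STAT letters. A kappaB match, as in the -92.7 kb peak, was present in 7.58% of 29680 peaks of like width. The -19.5 kb peak also held a kappaB and a C/EBP match outside its printed stretch. Among 26433 peaks of like width to it, 12.9% held IRF, 10.2% PU.1, 11.4% kappaB and 33.5% C/EBP letters. In the middle 500 bases of the peaks, C/EBP letters were in 10 of 37 locus peaks (27.0%) and in 19.7% of all peaks. AP-1 letters were in 4 (10.8%) against 18.1%, and STAT letters in 2 (5.4%) against 14.3%. The middle 500 bases of the promoter peak miss the matches printed above. Over its whole width that peak held 2 AP-1, 2 IRF, 1 kappaB and 1 C/EBP match. IRF letters were in 26.3% of peaks of like width. The whole +5.7 kb peak held 2 AP-1 matches and 1 STAT match outside the printed stretch. Among peaks of like width, 53.4% and 48.5% held AP-1 letters, respectively. These matches describe the letters only and show no binding.

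The total count in peaks per library was between 12020526 and 25908198, with a median of 19819132.5, and was lowest in Unstimulated (median 15808647). TMM factors, which correct for the composition of a library, ranged from 0.896 to 1.24, with the highest in Unstimulated. Values below are normalised counts per peak (counts scaled to a common library size with TMM). Promoter-class peaks were present for 5 of 6 macrophage markers, with medians over libraries from 83.4 to 401 normalised counts per kb, highest for Lyz2, a lysozyme gene. Spi1, which encodes PU.1, had none. Of 9 markers of T, B, neutrophil, fibroblast and epithelial cells, 7 had a promoter-class peak, with medians from 19.0 to 109 per kb, where Col1a1, a collagen gene, was highest. The quartiles of all promoter-class peaks were 28.4 and 172 per kb. Cd3e and Cd3g had no such peak.

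LPS against Unstimulated addressed how the locus responds to the bacterial stimulus. With LPS the locus opened over a long stretch: 20 of the 37 peaks rose, including all 4 over the gene body, 12 of 19 upstream and 4 of 14 downstream. A peak was called changed with a false discovery rate (FDR) under 0.05 over all peaks tested and an absolute log2 fold change above 0.5. By this rule 11.7% of all 194230 peaks tested rose and 10.2% fell with LPS, against 6.58% and 19.3% with total count scaling. The median log2 fold change was 0.85 over the 37 peaks and -0.03 over all peaks. Beyond +27.3 kb, where Tyms, Fam59b and Hadha lie, a rise was called in 1 peak (+101.4 kb, log2 fold change 0.60, lost without replicate 1 at an FDR of 0.102 or without replicate 3 at 0.0504), and the Tyms promoter peak fell. Of the 20 rises, 13 were called whichever replicate was left out. The other 7 were at -52.9, -47.3, -44.6, -39.3, -15.4, -3.8 and +101.4 kb. Since these are bulk libraries, more cells with an open region and more opening per cell cannot be told apart.

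**Figure D1:**
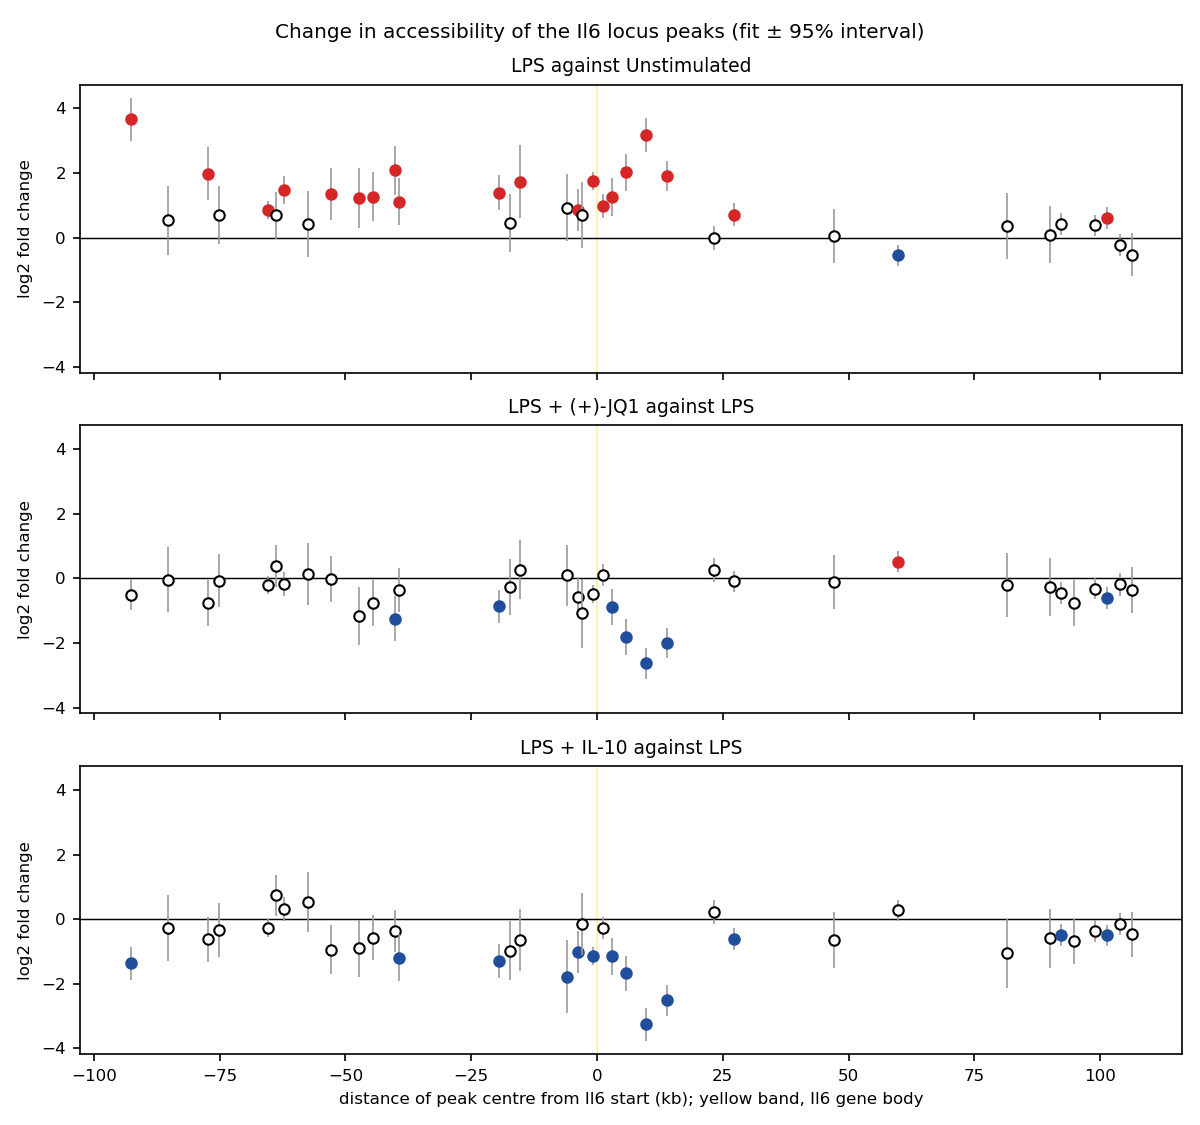
Log2 fold change of each Il6 locus peak (vertical axis) against the distance of its centre from the Il6 start in kb (horizontal axis) for LPS against Unstimulated, LPS + (+)-JQ1 against LPS and LPS + IL-10 against LPS, with 95% intervals. Red points were called higher, blue lower and open not called, and 1 peak (+94.7 kb) without a usable interval is left out of the top panel. The peaks from +5.7 to +14.0 kb rise in the top panel and are the 3 lowest points in the middle panel, and in the bottom panel +9.7 and +14.0 kb are the lowest, followed by -5.9 and +5.7 kb.

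The Il6 promoter peak had 161, 216 and 240 normalised counts in replicates 1 to 3 of Unstimulated and 805, 595 and 686 in LPS. It had 495, 570 and 440 with LPS + (+)-JQ1 and 341, 303 and 307 with LPS + IL-10. Without LPS it had 250, 271 and 282 with (+)-JQ1 and 260, 295 and 370 with IL-10. Every LPS library was above every library of the other 5 groups, LPS + (+)-JQ1 came next, and LPS + IL-10 overlapped IL-10 alone. The rise with LPS was 1.75 ± 0.15 (SE) on the log2 scale, a 3.37-fold change with an FDR of 1.02e-18, and the peak ranked 2398 of 194230 by its log2 fold change.

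The +9.7 kb peak, in the intergenic stretch beyond the 3′ end, had 25.2, 16.5 and 23.7 normalised counts in Unstimulated, 10.1, 22.4 and 21.6 with (+)-JQ1 and 3.69, 14.6 and 18.5 with IL-10. LPS brought it to 241, 169 and 177. It had 21.7, 39.0 and 32.1 with LPS + (+)-JQ1 and 16.2, 20.7 and 24.2 with LPS + IL-10. The LPS libraries thus stood far above all others, and both treated LPS groups overlapped the Unstimulated one. The rise with LPS was 3.17 ± 0.26 (9.02-fold, FDR 4.46e-19), the 131st highest of all peaks tested.

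The +14.0 kb peak had 78.0, 29.9 and 29.9 normalised counts in Unstimulated and 170, 151 and 184 in LPS. It had 47.7, 42.0 and 37.9 with LPS + (+)-JQ1 and 34.4, 27.2 and 26.8 with LPS + IL-10. Without LPS it had 32.5, 26.3 and 30.4 with (+)-JQ1 and 17.6, 32.0 and 16.8 with IL-10. Its LPS libraries did not overlap any other group, and Unstimulated replicate 1 was the highest library without LPS. The rise with LPS was 1.91 ± 0.23 (FDR 4.43e-11).

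At +5.7 kb, over the fourth and last exons, Unstimulated libraries had 27.7, 20.6 and 15.4 normalised counts and LPS libraries 88.0, 73.2 and 95.4. With LPS + (+)-JQ1 the counts were 33.2, 21.5 and 20.4, and with LPS + IL-10 they were 31.5, 18.5 and 29.3. The groups without LPS had 24.7, 21.1 and 9.82 with (+)-JQ1 and 14.8, 18.3 and 19.4 with IL-10. Only the LPS group stood apart, with a rise of 2.02 ± 0.29 (FDR 1.10e-08).

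The other body peaks, at +1.2 and +3.0 kb, differed from each other. The +1.2 kb peak had 69.2, 70.2 and 96.8 normalised counts in Unstimulated, 144, 128 and 198 in LPS, 209, 161 and 137 in LPS + (+)-JQ1 and 150, 132 and 105 in LPS + IL-10. It had 84.0, 120 and 105 with (+)-JQ1 and 105, 104 and 98.8 with IL-10 alone. The 3 groups given LPS overlapped here, and the rise with LPS was 0.98 ± 0.18. The +3.0 kb peak, in an intron, had 35.2, 17.6 and 19.6 in Unstimulated, 69.0, 46.0 and 55.0 in LPS, 41.9, 19.5 and 32.8 in LPS + (+)-JQ1 and 25.8, 26.1 and 25.0 in LPS + IL-10. With (+)-JQ1 alone it had 30.3, 17.1 and 21.6, and with IL-10 alone 24.9, 19.2 and 24.7. Its LPS libraries were above all others, with a rise of 1.26 ± 0.30.

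**Figure D2:**
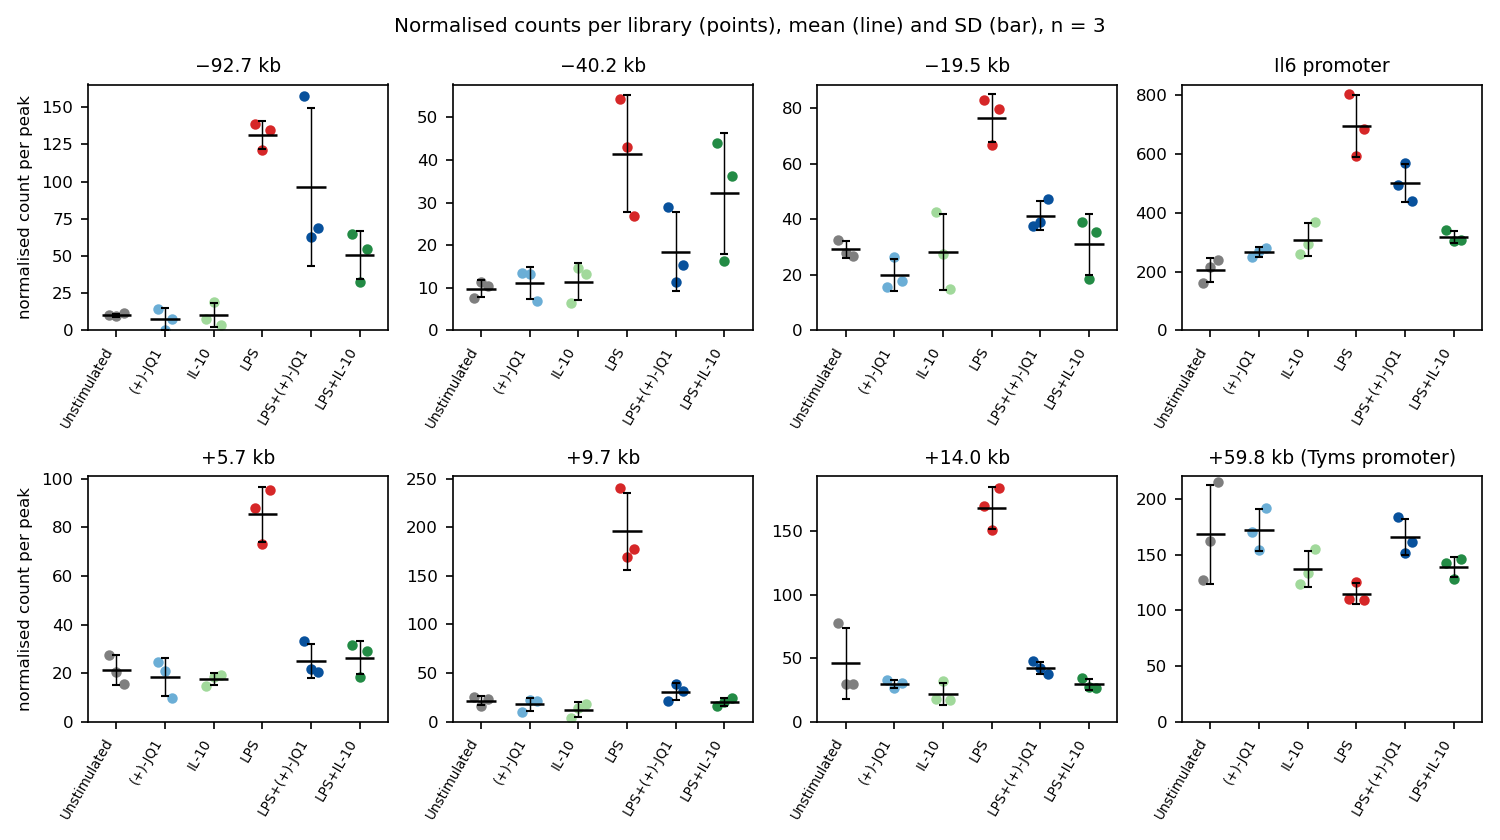
Normalised counts per peak (vertical axis) in the 6 groups (horizontal axis) for 8 peaks of the Il6 locus, where points are libraries, the line is the mean and the bar the SD (n = 3). At +5.7, +9.7 and +14.0 kb the LPS libraries sit alone, while at -92.7 kb and the Il6 promoter the LPS + (+)-JQ1 libraries stay above the groups without LPS.

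Upstream, the -92.7 kb peak (chr5:30246577-30247330), whose kappaB stretch is printed above, had the highest LPS response of the locus. It had 10.1, 9.29 and 11.3 normalised counts in Unstimulated, 14.6, 0 and 7.86 with (+)-JQ1 and 7.39, 19.2 and 3.53 with IL-10. It had 139, 121 and 135 with LPS, 157, 62.5 and 68.5 with LPS + (+)-JQ1 and 64.9, 32.7 and 54.4 with LPS + IL-10. All 9 libraries given LPS were above all 9 without it, and LPS + (+)-JQ1 replicate 1 was above every LPS library. The rise was 3.67 ± 0.34 (12.7-fold, FDR 9.90e-17), the 53rd highest of the 194230 peaks.

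The -19.5 kb peak had 32.7, 27.9 and 26.8 normalised counts in Unstimulated, 82.9, 66.6 and 79.7 in LPS, 37.5, 39.0 and 47.4 in LPS + (+)-JQ1 and 39.1, 18.5 and 35.4 in LPS + IL-10. Without LPS it had 15.7, 26.3 and 17.7 with (+)-JQ1 and 42.5, 27.4 and 15 with IL-10. The LPS libraries did not overlap any other group, and the rise with LPS was 1.40 ± 0.27. The -40.2 kb peak had 7.54, 11.4 and 10.3 in Unstimulated, 54.4, 43.2 and 26.9 in LPS, 28.9, 11.3 and 15.3 in LPS + (+)-JQ1 and 43.9, 16.3 and 36.2 in LPS + IL-10. It had 13.4, 13.2 and 6.88 with (+)-JQ1 and 6.47, 14.6 and 13.2 with IL-10 alone. Its rise with LPS was 2.08 ± 0.39, and the LPS libraries overlapped both treated LPS groups.

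The -62.2 kb peak, of the promoter class, had 52.8, 36.1 and 45.3 normalised counts in Unstimulated, 138, 130 and 98.8 in LPS, 160, 88.2 and 88.9 in LPS + (+)-JQ1 and 166, 121 and 173 in LPS + IL-10. With (+)-JQ1 alone it had 51.5, 55.3 and 49.1, and with IL-10 alone 41.6, 56.6 and 44.1. All libraries given LPS were above those without, and the rise with LPS was 1.47 ± 0.21. Its neighbour at -65.3 kb had 179, 172 and 242 in Unstimulated, 349, 340 and 382 in LPS, 328, 290 and 308 in LPS + (+)-JQ1 and 316, 291 and 280 in LPS + IL-10. It had 227, 259 and 291 with (+)-JQ1 and 249, 252 and 273 with IL-10 alone. The -65.3 kb peak was already open without LPS, and LPS raised it by 0.85 ± 0.14.

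Some of the printed peaks upstream of the start had low counts, as did others farther away, such as -85.3 and -57.5 kb. The -17.2 kb peak ranged from 2.74 to 23.6 normalised counts over the 18 libraries, the -15.4 kb peak from 0.924 to 24.6 and the -5.9 kb peak from 1.83 to 21.7. The -17.2 kb peak had 13.8, 12.4 and 10.3 in Unstimulated, 7.84, 7.89 and 7.86 with (+)-JQ1, 2.77, 2.74 and 6.18 with IL-10, 16.4, 10.3 and 23.6 with LPS, 17.3, 12.3 and 12.4 with LPS + (+)-JQ1 and 6.68, 12.0 and 6.90 with LPS + IL-10. Here the LPS and Unstimulated libraries overlapped. The -15.4 kb peak had 7.54, 4.13 and 2.06 in Unstimulated, 7.84, 5.26 and 0.982 with (+)-JQ1, 0.924, 4.57 and 7.06 with IL-10, 14.7, 10.3 and 20.2 with LPS, 24.6, 12.3 and 18.2 with LPS + (+)-JQ1 and 11.5, 4.35 and 12.1 with LPS + IL-10. It rose by 1.72 ± 0.57 with LPS (FDR 0.0172), with no overlap, but the call was lost without replicate 2 (FDR 0.0626) and without replicate 3 (FDR 0.247). The -5.9 kb peak had 11.3, 7.23 and 3.09 in Unstimulated, 6.72, 3.95 and 5.89 with (+)-JQ1, 10.2, 1.83 and 4.41 with IL-10, 12.9, 14.1 and 13.5 with LPS, 21.7, 8.20 and 14.6 with LPS + (+)-JQ1 and 6.68, 2.18 and 2.59 with LPS + IL-10. Its log2 fold change with LPS was 0.93 ± 0.53 (FDR 0.197). The -3.8 kb peak had 17.6, 28.9 and 16.5 in Unstimulated, 20.2, 10.5 and 21.6 with (+)-JQ1, 24.0, 14.6 and 19.4 with IL-10, 49.2, 25.3 and 40.4 with LPS, 20.2, 25.6 and 29.9 with LPS + (+)-JQ1 and 20.04, 20.7 and 16.4 with LPS + IL-10. It rose by 0.86 ± 0.33 with LPS (FDR 0.0417), with 1 LPS library inside the Unstimulated range. With the replicate number as a block, this call was lost (FDR 0.0538), as it was without replicate 1 (0.415) and without replicate 3 (0.250).

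The Tyms promoter peak at +59.8 kb moved the other way. It had 127, 162 and 215 normalised counts in Unstimulated, 111, 126 and 109 in LPS, 183, 152 and 162 in LPS + (+)-JQ1 and 142, 128 and 146 in LPS + IL-10. It had 170, 154 and 192 with (+)-JQ1 and 124, 133 and 155 with IL-10 alone. The LPS group had the lowest mean, and its libraries did not overlap Unstimulated or LPS + (+)-JQ1. The fall with LPS was -0.55 ± 0.17 (FDR 0.00776), and it was not called without replicate 3 (-0.30, FDR 0.309). The +92.3 kb peak over the 3110082J24Rik and Fam59b starts had 138, 133 and 103 in Unstimulated, 95.2, 129 and 109 with (+)-JQ1, 117, 94.98 and 87.4 with IL-10, 184, 169 and 144 with LPS, 136, 111 and 119 with LPS + (+)-JQ1 and 84.9, 122 and 144 with LPS + IL-10. Its log2 fold change with LPS was 0.42 ± 0.17 (FDR 0.0628).

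LPS + (+)-JQ1 against LPS addressed how BET inhibition changes the LPS response. Under LPS, (+)-JQ1 lowered 7 of the 37 peaks (3.48% of all peaks were lower) and raised 1, the Tyms promoter (1.74% were higher). All 7 lowered peaks were among the 20 that rose with LPS, and 18 of those 20 had a negative log2 fold change, as had 30 of all 37. The rise and the fall share the same LPS libraries, so values high by chance there would add to both. This overlap is therefore a description. The fall was steepest in the block at and beyond the 3′ end of Il6. It was -2.63 ± 0.24 at +9.7 kb (FDR 5.10e-15), -2.00 ± 0.23 at +14.0 kb (FDR 6.51e-11) and -1.81 ± 0.28 at +5.7 kb (FDR 7.69e-07). The +9.7 kb peak was the 24th lowest of 194230. The other 4 were at -40.2 kb (-1.24 ± 0.35), +3.0 kb (-0.88 ± 0.28), -19.5 kb (-0.87 ± 0.26) and +101.4 kb (-0.61 ± 0.17). The falls at -19.5, +3.0 and +101.4 kb lost their calls whichever of the 3 replicates was left out (FDR from 0.0691 to 0.276), and that at -40.2 kb without replicate 2 (FDR 0.272) or 3 (FDR 0.0687).

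The Il6 promoter peak was lower with (+)-JQ1 by -0.47 ± 0.14 (95% interval -0.75 to -0.20, FDR 0.0211), in 3 of 3 same-numbered pairs and without overlap. It passed the FDR limit but not the fold limit, and was called without replicate 2 (-0.68) and with loess scaling (-0.55). At -92.7 kb the log2 fold change was -0.50 ± 0.25 (FDR 0.265), and without replicate 1, in which the LPS + (+)-JQ1 library was high, it was -0.96 with an FDR of 0.0205. At +1.2 kb it was 0.10 ± 0.17 (FDR 0.837). The Tyms promoter peak rose by 0.52 ± 0.17 (FDR 0.0421), a call that was lost whichever replicate was left out (FDR from 0.120 to 0.229).

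LPS + IL-10 against LPS asked the same of the cytokine that these cells cannot make. IL-10 lowered 13 of the 37 peaks under LPS (4.52% of all peaks were lower) and raised 0 (4.26% were higher; 3.48% and 5.35% with total count scaling), with 0 also by DESeq2 and 1 higher at an unadjusted p under 0.05 by edgeR. The Il6 promoter fell by -1.13 ± 0.14 (FDR 6.05e-10), in 3 of 3 same-numbered pairs. The block at and beyond the 3′ end of the gene fell again, by -3.25 ± 0.26 at +9.7 kb (FDR 7.32e-19), -2.51 ± 0.24 at +14.0 kb (FDR 1.40e-14) and -1.67 ± 0.27 at +5.7 kb (FDR 1.88e-06). The +9.7 kb peak was the 6th lowest of all 194230 peaks tested. Upstream, the peaks at -92.7 (-1.36 ± 0.26, not called by DESeq2 at an FDR of 0.119), -39.3 (-1.19 ± 0.36), -19.5 (-1.28 ± 0.26), -5.9 (-1.78 ± 0.57) and -3.8 kb (-1.01 ± 0.33) fell. The remaining 4 were at +3.0 kb (-1.15 ± 0.29), +27.3 kb (-0.63 ± 0.17), +92.3 kb (-0.50 ± 0.17) and +101.4 kb (-0.50 ± 0.17). The +92.3 kb call was lost without replicate 1 (-0.22, FDR 0.580) and without replicate 2 (FDR 0.196), and with the replicate block, where the value was -0.49. The calls at -5.9 and -3.8 kb were each lost when 1 of 2 replicates was left out (replicates 2 or 3, and 1 or 3, FDR from 0.204 to 0.265), and that at +3.0 kb without replicate 1 (FDR 0.0852). Those at -39.3, +27.3 and +101.4 kb were lost whichever replicate was left out (FDR from 0.0559 to 0.235). Besides -92.7 kb, DESeq2 did not call the falls at -5.9 (FDR 0.053), +92.3 (FDR 0.0763) and +101.4 kb (-0.496).

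Both treatments were set against the same 3 LPS libraries. The peaks lowered by each were shared at 6 positions, -19.5, +3.0, +5.7, +9.7, +14.0 and +101.4 kb, which made up 85.7% of those lower with (+)-JQ1 and 46.2% of those lower with IL-10. Under LPS the -40.2 kb peak was called lower with (+)-JQ1 but not with IL-10, where the log2 fold change was -0.37 ± 0.32. Compared directly, LPS + (+)-JQ1 was higher than LPS + IL-10 at 4 peaks (3.43% of all peaks) and lower at 0 (4.67% of all peaks), where total count scaling gave 2.22% and 5.91% of all peaks. By DESeq2 the counts were 3 and 0, and by edgeR 2 of the 37 peaks were lower at an unadjusted p under 0.05. The 4 were the Il6 promoter (0.66 ± 0.14, FDR 0.000477), -92.7 kb (0.86 ± 0.27, FDR 0.0227), -5.9 kb (1.88 ± 0.57, FDR 0.0199) and +27.3 kb (0.53 ± 0.17, FDR 0.0330). The promoter call was lost without replicate 2 (0.53, FDR 0.149), the -92.7 kb call without replicate 1 (0.57, FDR 0.292) or 2 (FDR 0.0725), the +27.3 kb call without replicate 1 (FDR 0.220) or 2 (FDR 0.253), and the -5.9 kb call whichever replicate was left out (FDR from 0.0565 to 0.190). At +9.7, +14.0 and +5.7 kb the treatments differed by 0.62 (95% interval 0.02 to 1.23), 0.51 (-0.03 to 1.05) and -0.14 (-0.76 to 0.48), with FDRs of 0.205, 0.264 and 0.855.

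**Figure D3:**
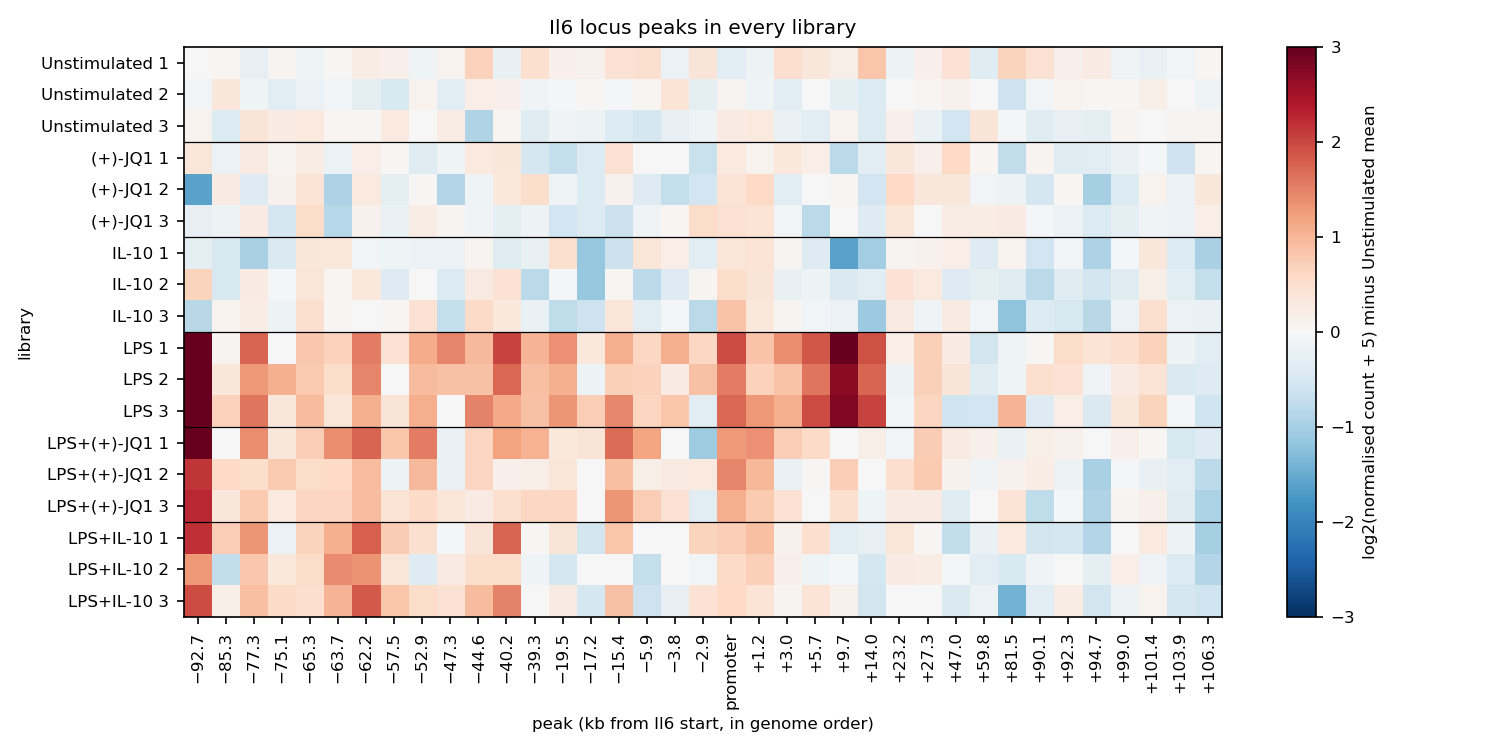
All 37 peaks of the Il6 locus in genome order (horizontal axis, kb from the Il6 start) in each of the 18 libraries (vertical axis), coloured by log2(normalised count + 5) minus the mean of the Unstimulated libraries. In the LPS rows most columns from -92.7 to +14.0 kb are red, though single LPS libraries are at or below the Unstimulated mean, as at -47.3 and -17.2 kb. In the LPS + (+)-JQ1 and LPS + IL-10 rows the columns from +5.7 to +14.0 kb are pale. Some upstream columns keep part of their colour in these rows, such as -92.7 and -62.2 kb. In the LPS + IL-10 rows the means at -39.3, -19.5, -5.9 and -3.8 kb are near or below the Unstimulated mean.

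Summed over the 3 peaks at +5.7, +9.7 and +14.0 kb, the LPS libraries had 499, 393 and 457 normalised counts, against 102, 102 and 90.3 with LPS + (+)-JQ1, 82.1, 66.4 and 80.3 with LPS + IL-10 and 131, 67.1 and 69.0 in Unstimulated. The sum over the 19 upstream peaks was 1035 ± 56.7 (SD, n = 3) in LPS, 829 ± 164 in LPS + (+)-JQ1, 775 ± 94.2 in LPS + IL-10 and 442 ± 34.0 in Unstimulated. In the 3 peaks both treated LPS groups were thus within the Unstimulated range or near it, but Unstimulated replicate 1 alone set the top of that range. Without LPS the sums were 67.2, 69.7 and 61.9 with (+)-JQ1 and 36.0, 64.8 and 54.7 with IL-10. Each treated LPS group was above every library of the same treatment without LPS. In the upstream sum both treated LPS groups were above every Unstimulated library. The upstream sum did not speak for every peak. LPS + IL-10 was above Unstimulated at -92.7, -65.3 and -62.2 kb, but near it at -39.3, -19.5 and -3.8 kb. These sums were formed after the results were seen and were not tested.

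The treatments alone addressed whether the locus differed before LPS. With (+)-JQ1 alone, 0 of the 37 peaks were called against Unstimulated by edgeR or DESeq2, where 11.0% of all peaks were called in either direction (3.54% with loess scaling and 16.1% with total count scaling), and 5 of the 37 had an unadjusted p under 0.05. The Il6 promoter had a log2 fold change of 0.37 ± 0.15 (FDR 0.0957). With IL-10 alone, the Il6 promoter rose by 0.58 ± 0.15 (FDR 0.00547; 5.16% of all peaks were higher), while the peaks at +14.0 kb (-1.02 ± 0.28) and -17.2 kb (-1.60 ± 0.55) fell (3.50% of all peaks were lower). Over all peaks, 1.52% were higher and 1.47% lower with loess scaling, and 1.27% and 8.58% with total count scaling. The promoter call was lost without replicate 2 (FDR 0.0989) and with total count scaling (0.38) or loess scaling (0.26). The +14.0 kb fall was -0.28 (FDR 0.738) without replicate 1, whose Unstimulated library was high, and the -17.2 kb call was lost without replicate 1 (FDR 0.312) or 2 (FDR 0.275).

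Within cells given (+)-JQ1, LPS raised 8 peaks (5.70% of all peaks) and lowered 1 (3.58%). The raised peaks included the Il6 promoter (0.90 ± 0.14) and -92.7 kb (3.55 ± 0.36), while the values were 0.81 ± 0.32 (FDR 0.0947) at +9.7 kb, 0.49 ± 0.28 at +14.0 kb and 0.41 ± 0.34 at +5.7 kb. The lowered peak, a call lost without replicate 2 (FDR 0.183) or 3 (FDR 0.203), was at +106.3 kb (-1.12 ± 0.34), in Hadha, which encodes a subunit of the mitochondrial trifunctional protein. Without replicate 1, 5 peaks were raised. Within cells given IL-10, LPS raised 5 peaks (8.93% of all peaks), all upstream, at -92.7, -77.3, -63.7, -62.2 and -40.2 kb. The calls at -77.3 and -40.2 kb were lost without replicate 1 (FDR 0.291 and 0.164) and that at -63.7 kb without replicate 2 (FDR 0.0932). At the Il6 promoter this value was 0.04 ± 0.14 (95% interval -0.25 to 0.32).

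The LPS effect was smaller with (+)-JQ1 than without at 4 peaks, by a negative interaction term of the fit (called in 3.18% of all peaks). These were the promoter (-0.85 ± 0.20, FDR 0.00976), +5.7 kb (-1.60 ± 0.45, FDR 0.0261), +9.7 kb (-2.37 ± 0.43, FDR 0.000411) and +14.0 kb (-1.42 ± 0.37, FDR 0.0149). With IL-10 it was smaller at 8 peaks (a negative term was called in 5.90% of all peaks), led by +9.7 kb (-2.45 ± 0.45, FDR 0.000107) and the promoter (-1.71 ± 0.20, FDR 2.65e-09). At -92.7 kb the interaction was -0.12 ± 0.60 with (+)-JQ1 and -1.33 ± 0.54 with IL-10 (FDR 0.120). Of all peaks, 0.558% and 2.01% had a negative term with (+)-JQ1 and IL-10 under loess scaling, and 0.947% and 2.65% under total count scaling. Over all peaks a negative term can be a smaller rise or a larger fall with LPS. Without replicate 2, 0 of the 4 (+)-JQ1 calls were left and 2 of the 8 for IL-10, those at the promoter and +9.7 kb. Without replicate 1 or 3 the counts were 2 and 4.

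The promoter peaks whose levels followed that of Il6 most closely over the 18 libraries were those of Enpp4 (Pearson r = 0.956), Cd83 (0.954), Zfp385a (0.947), Cd40 (0.946) and one 1102 bases from a start of Icam5 (0.946), among 22738 promoter-class peaks with a mean of at least 50 normalised counts. Cd83 is a marker of activated antigen-presenting cells and Cd40 a costimulatory receptor. The 18 libraries share the same 6 treatments, so this is a description. The Cd40 peak had means of 291 in Unstimulated, 1231 in LPS, 928 in LPS + (+)-JQ1 and 644 in LPS + IL-10. Within the locus, r with the Il6 promoter was 0.866 at -65.3 kb, 0.836 at -52.9 kb and 0.812 at +1.2 kb, while r between +9.7 and +14.0 kb was 0.898.

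IL-6 belongs to a family of cytokines that signal through gp130, and its output is set by transcription factors, feedback inhibitors and proteins that act on its mRNA. Promoter peaks were found for 43 of 47 such genes. With LPS, 20 of them rose and 1 fell, where 14.3% of all promoter-class peaks rose and 6.71% fell. Under LPS, (+)-JQ1 lowered 1 and raised 1 (3.21% and 1.73% of promoter-class peaks), and IL-10 lowered 6 (3.95%) and raised 0 (3.04%).

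Of 7 ligand promoters, 4 rose with LPS. Il27, the p28 subunit of IL-27, had 116, 141 and 155 normalised counts in Unstimulated, 828, 710 and 732 in LPS, 533, 360 and 396 in LPS + (+)-JQ1 and 397, 313 and 399 in LPS + IL-10. It rose by 2.45 ± 0.15 with LPS and fell by -0.83 ± 0.14 with (+)-JQ1 and -1.03 ± 0.14 with IL-10, and was the single ligand called with either treatment. Ebi3, which pairs with p28, rose by 1.04 ± 0.15 with LPS and had 0.11 ± 0.14 with (+)-JQ1. Clcf1 (1.29 ± 0.16) and Ctf1 (0.76 ± 0.15) also rose. Of 5 receptor promoters, Il6ra, the IL-6 receptor, rose by 0.57 ± 0.14, Il27ra rose by 0.52 ± 0.15 and Il11ra1 fell by -1.05 ± 0.21. None of the 5 was called with either treatment under LPS by edgeR, the one method run on these genes.

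Among 7 signalling genes, Tyk2, a Janus kinase, rose with LPS (1.18 ± 0.27). Of 4 feedback genes, Socs3, an inhibitor of gp130 signalling that STAT3 induces, rose by 1.99 ± 0.14 and Socs1 by 1.05 ± 0.14. The Socs3 promoter had 1118, 1281 and 1346 normalised counts with IL-10 alone and 285, 327 and 358 in Unstimulated. Lack of overlap here was not particular to Socs3. Elavl1 had 909, 949 and 872 with IL-10 alone and 504, 620 and 809 in Unstimulated, while Arid5a overlapped and Il11ra1 was lower with IL-10 alone. Of 14 transcription factor promoters, 10 rose with LPS, led by Nfkbiz, which encodes the IL-6 co-activator IκBζ (1.67 ± 0.14), Nfkb2 (1.00 ± 0.14) and Irf1 (0.95 ± 0.13). Among the 10, Cebpb, Junb and Crem (0.54 each) and Rela (0.59) were close to the fold limit. Atf3 (0.47, FDR 0.0054) and Jun (0.44, FDR 0.0122) passed the FDR limit with LPS but not the fold limit. IL-10 lowered 5 of the 14, Irf1 (-0.64 ± 0.13), Nfkbiz (-0.62 ± 0.14), Rel (-0.53 ± 0.14), Nfkb1 (-0.52 ± 0.14) and Nfkb2 (-0.51 ± 0.14), and (+)-JQ1 changed 0 of the 14. Rel, Nfkb1 and Nfkb2 were just past the fold limit. Jun (-0.5 ± 0.14, FDR 0.00958) and Crem (-0.44 ± 0.14, FDR 0.0296) passed the FDR limit with IL-10 but not the fold limit. No other fit was run on these genes. Of 6 genes for mRNA stability, Zc3h12a, which encodes the Il6 mRNA-degrading Regnase-1, rose by 0.66 ± 0.14 with LPS, and Zfp36l1 was higher with (+)-JQ1 (0.53 ± 0.14).

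**Figure D4:**
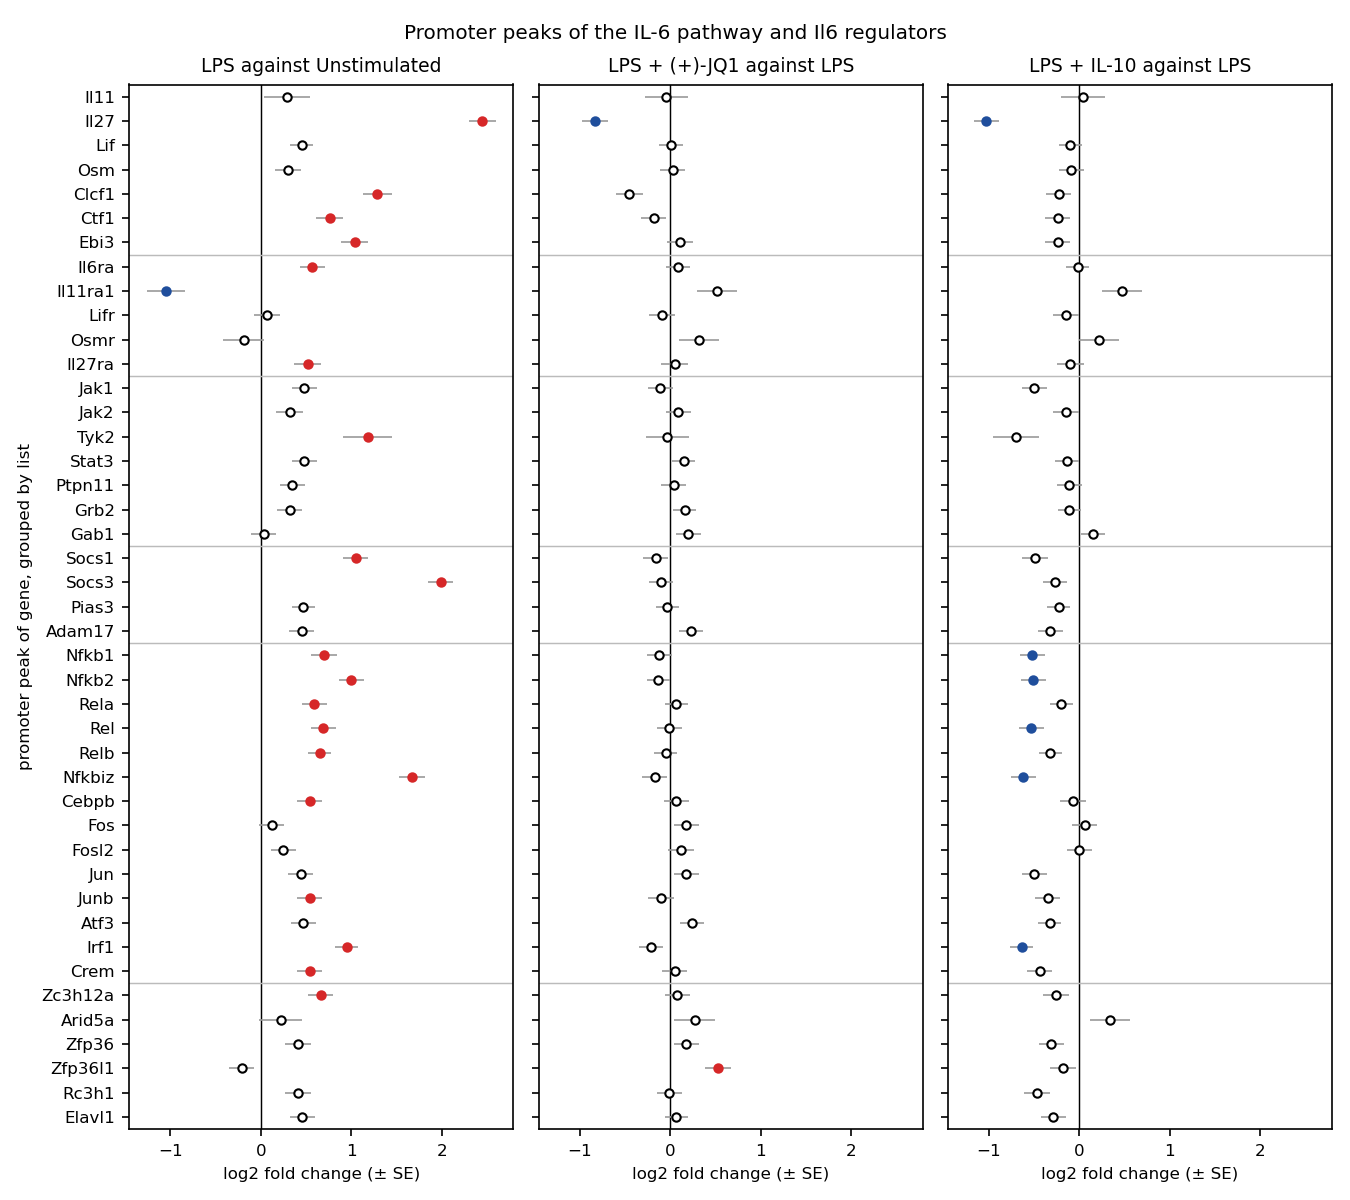
Log2 fold change ± SE (horizontal axis) of the promoter peaks of 43 genes of the IL-6 family, its receptors, signalling, feedback, transcription factors and mRNA stability (vertical axis, grouped in that order) in 3 comparisons. Red points were called higher, blue lower and open not called. With LPS 20 of the 43 are red, and 6 are blue with IL-10 and 1 with (+)-JQ1.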

How the data were processed

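ATAC-seq read counts per peak were analysed in 18 libraries (3 per group). The authors aligned uniquely mapped 50 bp read pairs to mm9 with bowtie2 in PEPATAC, called peaks per library with MACS2, joined them into 1 set and classed them as promoter or distal with ChIPSeeker. The deposited values are raw counts per peak, not normalised or pooled, and the counting tool is not given in the sources used here. Another 6 columns that match no sample were not used.

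The counts were tested with edgeR 4.0.16 (R 4.3.3): filterByExpr, TMM, 1 quasi-likelihood fit of all 6 groups without a block, and Benjamini-Hochberg adjustment over the 194230 peaks kept, all 37 locus peaks among them. SE and 95% intervals come from that fit. A peak changed with an FDR under 0.05 and an absolute log2 fold change above 0.5. Total counts in peaks were between 12020526 and 25908198 per library, which sets the counting precision. Low peaks, under about 20 counts, are the least precise. The fits were tested on simulated counts.

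The series describes the conditions as biologically matched, so a replicate number was taken as 1 mouse, although no source used here ties numbers to mice and the counts gave no sign of pairing. Over the 45 same-number pairs, deviations from the group means correlated at 0.0057 on average, and at -0.0029 over the 90 other pairs. Replicates of a group differed by more than sampling noise (chi-square per degree of freedom 1.92 to 4.29).

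Values were printed per library for the Il6 promoter peak, for called peaks over the gene body or within 25 kb of its start, and elsewhere for the 3 with the highest mean and the 3 with the highest absolute change with LPS (mean at least 20). Some genes of the pathway and marker lists are not reported here. The members, gene lists and sequences were chosen with earlier results of these data known. Alternatives were DESeq2 1.42.0, RLE, total count and loess scaling, other filters, a replicate block, lane, each replicate left out, no fold limit and a 25 kb window.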

Additional observations from a re-analysis of the deposited data

Results flagged for a closer look

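The LPS effect differed between untreated and (+)-JQ1-treated cells at 4 peaks, by the interaction term of edgeR's fit with adjustment over all peaks. The differences in log2 fold change were -0.85 at the Il6 promoter, -1.60 at +5.7 kb, -2.37 at +9.7 kb and -1.42 at +14.0 kb. Between untreated and IL-10-treated cells it differed at 8 peaks, by -0.65 at -65.3 kb, -1.24 at -19.5 kb, -1.71 at the Il6 promoter, -1.41 at +5.7 kb, -2.45 at +9.7 kb, -1.49 at +14.0 kb, -0.75 at +27.3 kb and -0.84 at +101.4 kb. All 12 differences were negative, meaning that the LPS effect was smaller in treated cells, and both sets share the Unstimulated and LPS libraries. Of the interaction calls over all peaks, 16.9% with (+)-JQ1 and 25.4% with IL-10 were positive. With total count scaling these shares were 71.8% and 70.3%. Whichever replicate was left out, 0 of the 4 (+)-JQ1 calls and 2 of the 8 IL-10 calls held.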

How the results depend on the processing

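Of 2700 log2 fold changes of 26 called peaks in 10 comparisons under 11 other fits, 2550 kept their side of the thresholds, 134 calls were lost, 16 were gained and 0 reversed a call. Most of the 2700 were in comparisons where the peak was not called, so the 2550 do not measure how stable the calls were. Of the 21 calls with LPS, 13 held whichever replicate was left out. Under LPS this was so for 3 of 8 calls with (+)-JQ1 and 6 of 13 with IL-10. With the replicate number as a block, 19 peaks were higher with LPS, 7 were lower with (+)-JQ1 under LPS and 12 with IL-10, and apart from the -3.8 kb and +92.3 kb calls given above no call changed. Leaving out each replicate gave 15 to 17 higher and 0 to 1 lower with LPS, 0 higher and 3 to 5 lower with (+)-JQ1 under LPS, and 8 lower with IL-10 under LPS. It gave 0 to 2 higher and 0 to 2 lower with IL-10 alone, 0 to 3 higher and 0 to 1 lower for LPS + (+)-JQ1 against LPS + IL-10, 5 to 7 higher and 0 to 1 lower for LPS within (+)-JQ1, 4 to 5 higher for LPS within IL-10, and 0 to 2 and 2 to 4 smaller LPS effects with (+)-JQ1 and IL-10. The (+)-JQ1 falls called without each replicate in turn were those at +5.7, +9.7 and +14.0 kb.

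Total count scaling shifted all peaks together, to a median log2 fold change of -0.26 with LPS and -0.37 with (+)-JQ1 alone. It gave 15 higher with LPS, and under LPS 6 lower with (+)-JQ1 and 10 lower with IL-10. It also gave 3 lower with (+)-JQ1 alone, 0 higher and 6 lower with IL-10 alone, and 1 lower for LPS + (+)-JQ1 against LPS + IL-10. For the interactions it gave 1 higher and 2 lower with (+)-JQ1 and 1 higher and 3 lower with IL-10. The Il6 promoter rise with LPS was 1.53 on that scaling. Loess scaling gave 0 higher with (+)-JQ1 under LPS, and 0 higher and 1 lower with IL-10 alone. DESeq2 gave 18 higher with LPS and 1 lower with IL-10 alone. Under LPS it gave 0 higher and 6 lower with (+)-JQ1, and 9 lower with IL-10. It lost the (+)-JQ1 call at +3.0 kb (FDR 0.0598). The IL-10 calls it lost under LPS were at -92.7 (FDR 0.119), -5.9 (FDR 0.053), +92.3 (FDR 0.0763) and +101.4 kb (-0.496, short of the fold limit). The cause of these losses was not tested. Requiring 10 counts in every library left 16 locus peaks tested, and gave 10 higher with LPS, 0 higher with (+)-JQ1 and 6 lower with IL-10 under LPS, 0 higher and 1 lower with IL-10 alone, 2 higher and 1 lower for LPS + (+)-JQ1 against LPS + IL-10, 4 higher for LPS within (+)-JQ1, 1 higher for LPS within IL-10 and 1 higher IL-10 interaction. The 25 kb window, with 14 peaks, gave 10 higher and 0 lower with LPS, 0 higher with (+)-JQ1 under LPS, 4 higher and 0 lower for LPS within (+)-JQ1 and 0 higher for LPS within IL-10. Over the 37 peaks, those with few counts had wide intervals, so that missing calls there say little.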
